A study of Mus musculus with 24 samples.

Results

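The 10 genes described here encode receptors through which hormones and peptides act on appetite: the leptin receptor Lepr, the insulin receptor Insr, the ghrelin receptor Ghsr, the GLP-1 receptor Glp1r, the calcitonin receptor Calcr, the melanocortin receptors Mc3r and Mc4r, and the neuropeptide Y receptors Npy1r, Npy2r and Npy5r. They were named as a set with earlier results of these data known and looked up by gene symbol in a table of 22274 genes, where all 10 had an entry. The table held bulk RNA-seq of 24 libraries in 8 groups of 3, from tissue of male C57BL/6 J mice. Pituitary stalk electrical lesion (PEL) severs the link between hypothalamus and pituitary by passing current through a blade placed at the stalk, and the dissected hypothalamus included the supraoptic and paraventricular nuclei. The hypothalamic groups were Sham and Sham with growth hormone (GH), both at day 0 by their labels, PEL_3d and PEL_10d (taken 3 and 10 days after the lesion), and PEL_3d with GH and PEL_10d with GH. The hippocampal groups were Sham at day 0 and PEL_10d, both without GH. The age of the mice and the dose of GH are not given in the sources used here, the sham groups had no day 3 or day 10 counterpart, and the labels do not say whether each library was a separate animal, so p-values measure only the spread between these libraries. The time since surgery and the lesion cannot be told apart in a comparison with Sham.

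These receptors sit on neurons and glia of the hypothalamus and read how much energy the body holds. Leptin from fat and insulin from the pancreas act through Lepr, a cytokine receptor that signals through JAK2 and STAT3, and through Insr, a receptor tyrosine kinase, and both restrain feeding. Ghrelin from the stomach drives feeding through Ghsr, whereas GLP-1 from the gut and amylin from the pancreas restrain it through Glp1r and through Calcr paired with RAMP proteins. Within the hypothalamus, peptides made from Pomc activate Mc3r and Mc4r and Agrp blocks them, while neuropeptide Y stimulates feeding mainly through Npy1r and Npy5r and curbs its own release through Npy2r on nerve endings.

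The total count per library ranged from 15095267 to 17973494. Sham replicate 1 of each tissue went against its tissue label. In the library labelled hypothalamic Sham replicate 1, 18 hypothalamic markers summed to 15.7 FPKM (fragments per kilobase of transcript, scaled to library size), against 1027 or more in the other 17 hypothalamic libraries, and Sim1 and Agrp were at 0. In the library labelled hippocampal Sham replicate 1 those markers summed to 1389 FPKM and 14 hippocampal markers summed to 64.6 FPKM. Calcr was at 0.528 FPKM in the first library and 14.5 FPKM in the second, and Ghsr at 0.074 and 2.405 FPKM, while Npy2r (14.7 FPKM) and Glp1r (7.58 FPKM) in the first library did not lie at the levels of hippocampal Sham replicates 2 and 3. Both were left out of the tests, which leaves 17 hypothalamic and 5 hippocampal libraries, and the calls that were lost when they were kept as labelled are given beside the comparisons. Hippocampal Sham replicate 3 is titled hippocampus although its tissue entry reads Hypothalamus, so its title was followed. Its hippocampal markers summed to 532.8 FPKM and its hypothalamic markers to 6.46 FPKM.

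FPKM is scaled by transcript length, so levels can be set side by side between genes. Across the 17 hypothalamic libraries Calcr had the highest median level of the 10 receptors at 11.04 FPKM, with a range of 8.51 to 14.1. It was followed by Npy2r at 9.61 FPKM, Insr at 8.02 and Npy1r at 6.36, whose ranges over libraries overlapped. The other 6 lay lower, with medians of 2.85 FPKM for Lepr, 2.58 for Mc3r, 2.39 for Npy5r, 2.32 for Glp1r, 1.68 for Ghsr and 1.28 for Mc4r, and neighbours in that order overlapped in every case. Insr varied least between libraries, with a coefficient of variation of 7.22% and a 1.33-fold span from lowest to highest. Ghsr and Glp1r varied most, with coefficients of variation of 38.4% and 37.5%. Mc4r rested on the fewest reads, 28 to 76 counts per library, and Insr on the most, 1005 to 1423.

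The 10 genes lie on 7 chromosomes of GRCm38. Glp1r spans chr17:30901817-30940791 on the plus strand and Lepr chr4:101717404-101815352, while Mc3r and Mc4r each have 1 exon. Npy1r and Npy5r start 9064 bases apart on chromosome 8 on opposite strands, and no receptor gene shares exon bases with another gene. Promoter entries, which run from 250 bases before to 50 bases after a start site, were matched by symbol in the RefSeq table for GRCm38.p6 for 8 of the 10 genes, with Mc4r and Insr unmatched. The promoters of the 3 receptors that fell most at day 3 are shown here with the more upstream of the 2 Lepr entries, since Lepr was the receptor with the opposite direction at day 10. Capitals mark matches to 3 short motifs, searched on both strands. They are the GC box, written GGGCGG, then the box named for its letters CCAAT, and the core of the cAMP response element, written TGACG. In Glp1r a pair of GC boxes overlaps by 1 base.
Glp1r, chr17:30901617-30901916, plus strand: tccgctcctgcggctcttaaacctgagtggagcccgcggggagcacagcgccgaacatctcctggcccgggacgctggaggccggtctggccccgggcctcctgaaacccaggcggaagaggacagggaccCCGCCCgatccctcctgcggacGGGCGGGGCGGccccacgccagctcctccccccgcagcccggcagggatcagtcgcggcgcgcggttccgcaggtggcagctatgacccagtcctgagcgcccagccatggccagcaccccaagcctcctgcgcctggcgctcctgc
Mc3r, chr2:172248242-172248541, plus strand: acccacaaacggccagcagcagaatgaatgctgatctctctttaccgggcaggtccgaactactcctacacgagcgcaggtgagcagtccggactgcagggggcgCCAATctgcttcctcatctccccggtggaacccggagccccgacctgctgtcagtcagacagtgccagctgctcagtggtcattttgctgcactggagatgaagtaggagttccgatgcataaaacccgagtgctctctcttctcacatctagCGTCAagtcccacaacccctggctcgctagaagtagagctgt
Ghsr, chr3:27371101-27371400, plus strand: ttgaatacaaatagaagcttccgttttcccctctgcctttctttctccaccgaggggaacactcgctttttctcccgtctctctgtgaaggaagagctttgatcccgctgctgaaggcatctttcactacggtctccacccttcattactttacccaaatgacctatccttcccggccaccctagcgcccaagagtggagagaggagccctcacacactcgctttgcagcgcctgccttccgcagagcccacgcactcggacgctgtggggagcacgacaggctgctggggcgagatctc
Lepr, chr4:101717157-101717456, plus strand: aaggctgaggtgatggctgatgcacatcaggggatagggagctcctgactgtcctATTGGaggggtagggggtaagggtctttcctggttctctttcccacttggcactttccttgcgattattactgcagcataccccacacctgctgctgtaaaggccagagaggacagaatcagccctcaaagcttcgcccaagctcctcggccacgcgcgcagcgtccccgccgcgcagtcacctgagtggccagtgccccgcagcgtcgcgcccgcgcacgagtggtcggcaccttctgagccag
The Glp1r promoter was 73.7% G and C, against a median of 52.7% over the 32851 promoter entries, and held 3 GC box matches, where 35.7% of all entries held at least 1. Mc3r held 1 CCAAT box and 1 TGACG match and Lepr 1 CCAAT box, against 37.4% and 20.8% of all entries with the CCAAT box and with TGACG. Ghsr held none of the 3. TTCNNNGAA, the letters bound by STAT factors, was in none of the 10 receptor promoter entries and in 8.3% of all entries. These are matches of letters in a short window, not sites shown to be bound.

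At 3 days after the lesion, 7 of the 10 receptors were lower in the hypothalamus than in Sham and none was higher: Glp1r, Mc3r, Ghsr, Npy5r, Npy1r, Npy2r and Calcr, to between 0.386 and 0.749 of the Sham level. Of all 14905 genes tested, 40.5% were called in either direction and 18.2% were called lower, by edgeR's quasi-likelihood test at a Benjamini-Hochberg adjusted p under 0.05. The median log2 fold change was -0.91 over the 10 receptors and -0.01 over all genes tested. The level of 8 of the 10 did not overlap between PEL_3d and Sham, a pattern shown by 62.7% of all genes tested. In bulk tissue, fewer cells that express a gene and less RNA per cell cannot be told apart.

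**Figure D1:**
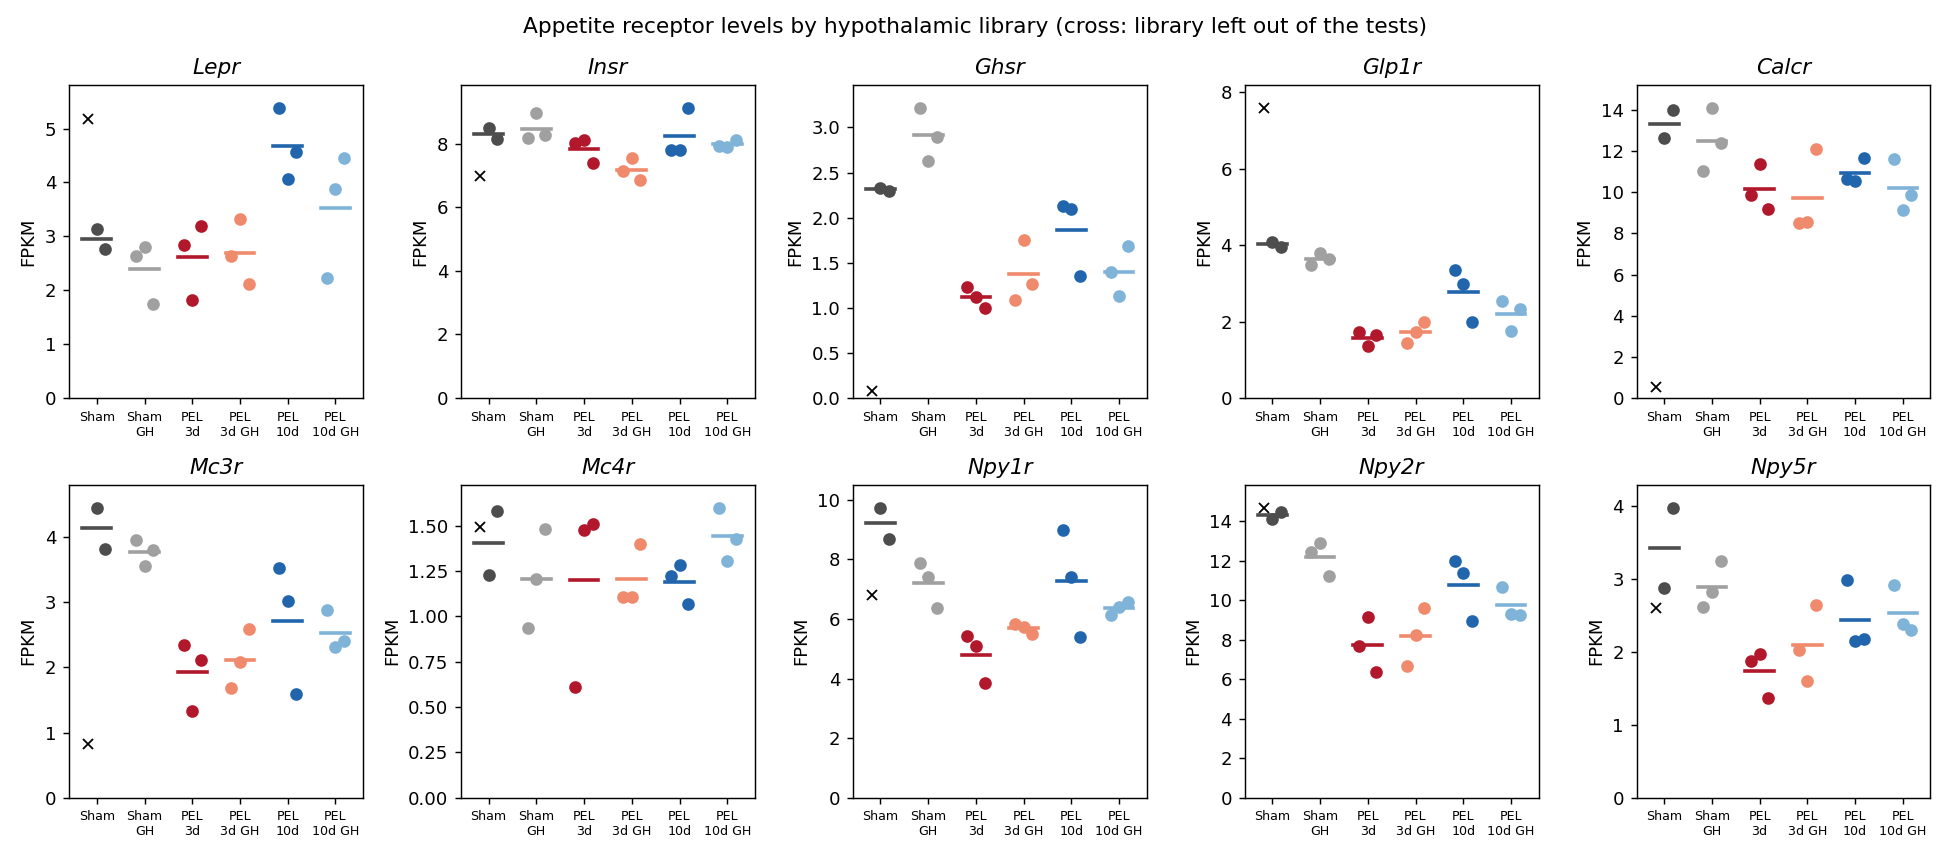
FPKM of each receptor (vertical axes, starting at 0) in the hypothalamic libraries by group, 1 point per library, with horizontal bars at group means and a cross for the Sham library left out of the tests. Glp1r lay between 1.35 and 1.74 FPKM at PEL_3d against 3.96 and 4.09 in Sham, while Lepr rose above Sham at PEL_10d.

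Among the receptors for hormones from the body, Glp1r had the largest fall. It was at 4.09 and 3.96 FPKM in the 2 Sham libraries and at 1.74, 1.35 and 1.64 FPKM in the 3 PEL_3d libraries, with no overlap. Its log2 fold change was -1.37 ± 0.13 (SE), with an edgeR adjusted p of 2.3e-05, and only 0.295% of genes tested had a lower fold change. Ghsr was at 2.33 and 2.30 FPKM in Sham and at 1.23, 1.12 and 0.996 FPKM at PEL_3d, again without overlap. Its log2 fold change was -1.07 ± 0.17 with an edgeR adjusted p of 0.000718. Calcr changed less, from 12.6 and 14.0 FPKM in Sham to 9.88, 11.4 and 9.20 FPKM, a log2 fold change of -0.42 ± 0.11 with an edgeR adjusted p of 0.0107.

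The 2 receptors for signals of fat and glucose stores did not pass the test. Lepr was at 3.14 and 2.77 FPKM in Sham and at 2.85, 1.83 and 3.19 FPKM at PEL_3d, so the groups overlapped, and its log2 fold change was -0.08 ± 0.21 (edgeR adjusted p = 0.797). Insr was at 8.48 and 8.14 FPKM in Sham and at 8.02, 8.11 and 7.39 FPKM at PEL_3d. Its groups did not overlap but differed little, with a log2 fold change of -0.18 ± 0.08 and an edgeR adjusted p of 0.105.

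Of the melanocortin receptors, Mc3r was called and Mc4r was not. Mc3r, the form also found on Pomc and Agrp neurons themselves, was at 4.44 and 3.81 FPKM in Sham and at 2.34, 1.34 and 2.11 FPKM at PEL_3d, a log2 fold change of -1.12 ± 0.22 with an edgeR adjusted p of 0.00287. Mc4r, whose loss causes obesity, was at 1.23 and 1.58 FPKM in Sham and at 0.612, 1.48 and 1.51 FPKM at PEL_3d. Its groups overlapped, 1 PEL_3d library lay apart from the rest at 28 counts, and the log2 fold change of -0.25 ± 0.36 gave an edgeR adjusted p of 0.623. The difference between the fold changes of the 2 genes was not tested.

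All 3 neuropeptide Y receptors fell. Npy1r went from 9.72 and 8.68 FPKM in Sham to 5.42, 5.11 and 3.85 FPKM at PEL_3d, Npy2r from 14.1 and 14.5 FPKM to 7.67, 9.14 and 6.38 FPKM, and Npy5r from 2.87 and 3.97 FPKM to 1.88, 1.97 and 1.36 FPKM. No PEL_3d library reached a Sham library in any of the 3. The log2 fold changes were -0.96 ± 0.14 for Npy1r, -0.87 ± 0.12 for Npy2r and -1.01 ± 0.24 for Npy5r, with edgeR adjusted p of 0.000483, 0.000209 and 0.00751. With the Sham library that went against its label kept, 3 receptors were called lower (Glp1r, Npy1r and Npy2r), Calcr was at 0.16 on the log2 scale, Mc3r, Ghsr and Npy5r were at -0.66, -0.50 and -0.88, and the edgeR adjusted p of Mc3r, Ghsr and Npy5r was 0.538, 0.807 and 0.0843. Without Sham replicate 3, 5 receptors were called, and Npy5r and Calcr were not.

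Markers of several cell types moved in the same comparison. Of 12 microglia and macrophage markers 12 were higher, and their summed level ran from 1409 to 1699 FPKM at PEL_3d against 209.9 to 211.1 in Sham. Of 16 genes used by most neurons 13 were lower, with summed levels of 1836 to 2042 FPKM against 2333 to 2398, and of 18 hypothalamic markers 13 were lower, with 1035 to 1157 FPKM against 1560 to 1617. The median log2 fold change was -0.32 over the neuron genes and -0.69 over the hypothalamic markers. Reactive astrocyte markers (10 of 12 higher, 1921 to 2107 against 709 to 747.9 FPKM), endothelial markers (8 of 10 higher, 235 to 259 against 158.8 to 159.3 FPKM) and tanycyte and ependymal markers (3 of 12 higher and 3 lower, 414 to 438 against 129.8 to 139 FPKM) moved as well. Vim, which is on both the astrocyte list and the tanycyte and ependymal list, made up most of the latter sum at PEL_3d. It was at 327, 318 and 336 FPKM there, against 31.6 and 32.6 FPKM in Sham. The part of these shifts in the receptor values was not tested.

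At 10 days after the lesion fewer receptors were called against Sham. Lepr rose to 1.60 times the Sham level and Npy2r was lower at 0.726 times, and the other 8 did not pass the test, so 2 of 10 were called where 9.4% of all 14801 genes tested were. The median log2 fold change over the 10 receptors was -0.35, against -0.01 over all genes, and 9 of the 10 were below 0. Lepr was at 5.38, 4.06 and 4.57 FPKM at PEL_10d, above both Sham libraries, with a log2 fold change of 0.68 ± 0.16 and an edgeR adjusted p of 0.0286. Npy2r was at 11.97, 11.4 and 8.97 FPKM, below both Sham libraries, with a log2 fold change of -0.46 ± 0.12 and an edgeR adjusted p of 0.0468.

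Both calls at day 10 were narrow. With the Sham library that went against its label kept, neither was called, with log2 fold changes of 0.24 for Lepr and -0.51 for Npy2r. The calls also rested on the 2 Sham libraries, since without either of them no receptor was called, with edgeR adjusted p of 0.166 and 0.212 for Lepr and 0.269 and 0.215 for Npy2r. The log2 fold changes with 1 Sham library left were 0.75 and 0.60 for Lepr and -0.46 and -0.47 for Npy2r, beside 0.68 and -0.46 with both. Without PEL_10d replicate 1, Glp1r and Npy2r were called, without replicate 2 only Lepr, and without replicate 3 only Calcr. Limma called neither Lepr nor Npy2r (limma adjusted p between 0.0713 and 0.137). With 1 fit over all hypothalamic groups Lepr was not called, and with a mean count of at least 50 Npy2r was not (edgeR adjusted p of 0.151 and 0.059). The replicate block called Glp1r as well (edgeR adjusted p = 0.0069).

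The 8 receptors that did not pass the test at day 10 all had log2 fold changes below 0. Glp1r was at 3.34, 2.97 and 2.001 FPKM, below both Sham libraries, with a log2 fold change of -0.56 ± 0.18 and an edgeR adjusted p of 0.0997. Calcr was at 10.6, 10.6 and 11.7 FPKM, also below both, with -0.30 ± 0.09 and an adjusted p of 0.0724. Mc3r (3.53, 3.02 and 1.58 FPKM), Ghsr (2.13, 2.10 and 1.35 FPKM) and Npy5r (2.98, 2.15 and 2.18 FPKM) had log2 fold changes of -0.63, -0.34 and -0.52 with edgeR adjusted p between 0.15 and 0.357. Replicate 3 of PEL_10d was the lowest of its group for Glp1r, Mc3r, Mc4r, Ghsr, Npy1r and Npy2r. It was also the lowest for Agrp (0.177 FPKM against 6.94 and 3.31), Pomc (10.4 FPKM against 80.2 and 56.5) and Nr5a1 (2.23 FPKM against 7.77 and 6.26), and its 6 blood markers summed to 126 FPKM against 26.4 and 42.2. Npy1r (8.99, 7.40 and 5.403 FPKM), Mc4r (1.22, 1.28 and 1.07 FPKM) and Insr (7.80, 7.80 and 9.12 FPKM) overlapped Sham, with log2 fold changes of -0.36, -0.26 and -0.07. In the PEL_10d libraries the neuron genes summed to 1995 to 2206 FPKM and the microglia and macrophage markers to 614 to 830 FPKM, and of the 18 hypothalamic markers 5 were lower, with a median log2 fold change of -0.42. Reactive astrocyte markers (7 of 12 higher, 1219 to 1331 against 709 to 747.9 FPKM in Sham), oligodendrocyte markers (5 of 12 higher, 3595 to 3788 against 2250 to 3083 FPKM) and endothelial markers (6 of 10 higher, 192 to 239 against 158.8 to 159.3 FPKM) were, like Lepr, at a higher level at day 10, and their part in the receptor values was not tested.

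Compared directly, 3 receptors were higher at PEL_10d than at PEL_3d and none was lower, where 18.5% of 14807 genes tested were called and 6.33% were called higher. Glp1r was 1.77-fold, Lepr 1.70-fold and Ghsr 1.67-fold higher, with log2 fold changes of 0.82 ± 0.19, 0.76 ± 0.20 and 0.74 ± 0.20 and edgeR adjusted p of 0.0172, 0.0316 and 0.0332. Npy1r was next, at 0.61 ± 0.19 with an adjusted p of 0.0528, and Mc4r was at 0.00 ± 0.32. In the same comparison 11 of 12 microglia and macrophage markers were lower (median -1.05), 7 of 12 reactive astrocyte markers were lower and 2 higher, 9 of 12 oligodendrocyte markers were higher and 2 lower, 4 of 16 neuron genes were higher and 1 lower, and 3 of 18 hypothalamic markers were higher, and their part in the receptor values was not tested. Leaving out single libraries left between 1 and 4 receptors called, and the receptor named changed with the library: Lepr alone without PEL_10d replicate 2 or PEL_3d replicate 3, Glp1r alone without PEL_10d replicate 1 or PEL_3d replicate 1, and Npy2r alone without PEL_3d replicate 2. The log2 fold changes of the calls lost without single libraries were between 0.56 and 0.85. Limma did not call Glp1r or Ghsr (limma adjusted p between 0.0532 and 0.0811). DESeq2, 1 fit over all hypothalamic groups and the replicate block also called Npy1r and Npy2r (adjusted p between 0.00311 and 0.0367). The PEL_3d and PEL_10d comparisons with Sham share the same 2 Sham libraries.

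Choroid plexus markers, whose tissue also carries Lepr, were set beside this rise. Of the 10 that could be tested, 5 were called higher and none lower at PEL_10d than at PEL_3d, with 8 above 0 and a median of 0.41 on the log2 scale. Against Sham, 1 was called higher at PEL_10d and none was lower. The 12 markers summed to 128 to 145 FPKM at PEL_10d, 95.4 to 108 FPKM at PEL_3d and 109 to 118 FPKM in Sham, and Enpp2, the marker that was called and one that oligodendrocytes also express, made up most of that sum, at 96.1 to 107 FPKM against 74.4 and 82.2 FPKM in Sham. Against Sham, 5 of the 10 were above 0 and 5 below. Among the insulin-like growth factors Igf2 rose by 1.06 ± 0.26 on the log2 scale over Sham at day 10 (edgeR adjusted p = 0.0376) after a change of -0.63 ± 0.16 at day 3 (edgeR adjusted p = 0.0107). Folr1 was at 0.763, 0.460 and 0.688 FPKM in the PEL_10d libraries and at 1.62 and 0.363 FPKM in Sham. Ttr was at 3.257, 4.806 and 10.8 FPKM against 4.86 and 5.515 FPKM in Sham. Kcnj13 was at 5.185, 4.058 and 4.603 FPKM against 3.078 and 2.828 FPKM, without overlap. The part of these genes in the Lepr value was not tested.

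With GH given to both arms, the lesion comparison could be made again in libraries that shared none with those above. At PEL_3d with GH against Sham with GH, 7 of 10 receptors were lower, where 52.1% of 14743 genes tested were called and 25.2% were lower. They were Glp1r, Mc3r, Ghsr, Npy1r, Npy2r, Calcr and Insr. Glp1r was at 3.48, 3.81 and 3.63 FPKM in Sham with GH and at 1.43, 1.72 and 1.995 FPKM at PEL_3d with GH, a log2 fold change of -1.10 ± 0.13 with an edgeR adjusted p of 8.5e-05. Ghsr was at 3.21, 2.62 and 2.89 FPKM against 1.09, 1.76 and 1.26 FPKM, a log2 fold change of -1.11 ± 0.18 with an adjusted p of 0.000665. Neither receptor's groups overlapped.

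Mc3r was at 3.95, 3.56 and 3.80 FPKM in Sham with GH and at 1.68, 2.08 and 2.58 FPKM at PEL_3d with GH, a log2 fold change of -0.85 ± 0.17. Npy2r was at 12.4, 12.9 and 11.2 FPKM against 6.66, 8.25 and 9.61 FPKM, a log2 fold change of -0.61 ± 0.11. The groups of both were again apart, with edgeR adjusted p of 0.00231 and 0.00109. Npy1r (-0.36 ± 0.11), Calcr (-0.40 ± 0.14) and Insr (-0.24 ± 0.07) were called by smaller margins, with edgeR adjusted p of 0.016, 0.0383 and 0.0178, and Calcr overlapped between the groups. Without Sham with GH replicate 2, 4 receptors were called (Glp1r, Mc3r, Ghsr and Npy2r), and these 4 were called in each of the 14 alternative settings. The other 3 calls changed with single libraries and with the method: Npy1r was lost without Sham with GH replicate 1 or 2, Insr without either of these or PEL_3d with GH replicate 1, and Calcr without Sham with GH replicate 2 or 3 or PEL_3d with GH replicate 1 or 2. Limma did not call Calcr or Insr (adjusted p between 0.0665 and 0.0738), Calcr was also lost with a mean count of at least 50, and Npy1r with 1 fit over all hypothalamic groups (edgeR adjusted p = 0.0594). Lepr was at 0.28 ± 0.21, Mc4r at -0.03 ± 0.23 and Npy5r at -0.49 ± 0.21, and none of the 3 was called.

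At PEL_10d with GH against Sham with GH, 5 of 10 receptors were lower (Glp1r, Mc3r, Ghsr, Npy2r and Calcr) and none was higher, where 30.9% of 14686 genes tested were called and 13.3% were lower. Ghsr, at 1.40, 1.13 and 1.68 FPKM, had the largest fall, with a log2 fold change of -1.07 ± 0.16 and an edgeR adjusted p of 0.000828. Glp1r, at 2.54, 1.76 and 2.32 FPKM, was at -0.74 ± 0.13 with an adjusted p of 0.00197, and Mc3r, at 2.88, 2.31 and 2.40 FPKM, was at -0.60 ± 0.13 with an adjusted p of 0.00763. Npy2r was at -0.30 ± 0.08 and Calcr at -0.32 ± 0.11, with adjusted p of 0.0146 and 0.0474. Lepr, at 2.23, 3.89 and 4.46 FPKM, had a log2 fold change of 0.68 ± 0.25, the same size as without GH, but 1 of the 3 libraries lay within the Sham with GH range of 1.74 to 2.80 FPKM and the edgeR adjusted p was 0.0599. With 1 fit over all hypothalamic groups only Glp1r and Ghsr were called, limma, a mean count of at least 50 and the replicate block (edgeR adjusted p = 0.0755) did not call Calcr, and DESeq2 and no count filter called Lepr (adjusted p of 0.0118 and 0.042). Without PEL_10d with GH replicate 2, and without Sham with GH replicate 2, 3 receptors were called (Glp1r, Mc3r and Ghsr). Npy2r was also lost without Sham with GH replicate 1, Calcr without Sham with GH replicate 3 or PEL_10d with GH replicate 3, and Lepr was called, as a rise, without PEL_10d with GH replicate 1. The neuron genes summed to 2393 to 2506 FPKM in Sham with GH, 1617 to 1971 FPKM at PEL_3d with GH and 1957 to 2116 FPKM at PEL_10d with GH, and the microglia and macrophage markers to 174 to 200 FPKM, 1576 to 2043 FPKM and 922 to 1158 FPKM. At PEL_3d with GH the median log2 fold change was -0.45 over the receptors, -0.54 over the neuron genes and -0.55 over the hypothalamic markers (10 of 18 lower), and at PEL_10d with GH it was -0.25, -0.30 and -0.24 (6 of 18 lower and 2 higher). At PEL_10d with GH, 12 of 12 oligodendrocyte markers, 5 of 5 blood markers tested, 9 of 12 reactive astrocyte markers and 7 of 10 endothelial markers were also higher, and at PEL_3d with GH 5 of 12, 2 of 4, 10 of 12 (2 lower) and 6 of 10 (1 lower). In PEL_10d with GH replicate 3 the anterior pituitary markers summed to 76.3 FPKM, against 34.6 FPKM or less in the other hypothalamic libraries. The part of these genes in the receptor values was not tested.

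**Figure D2:**
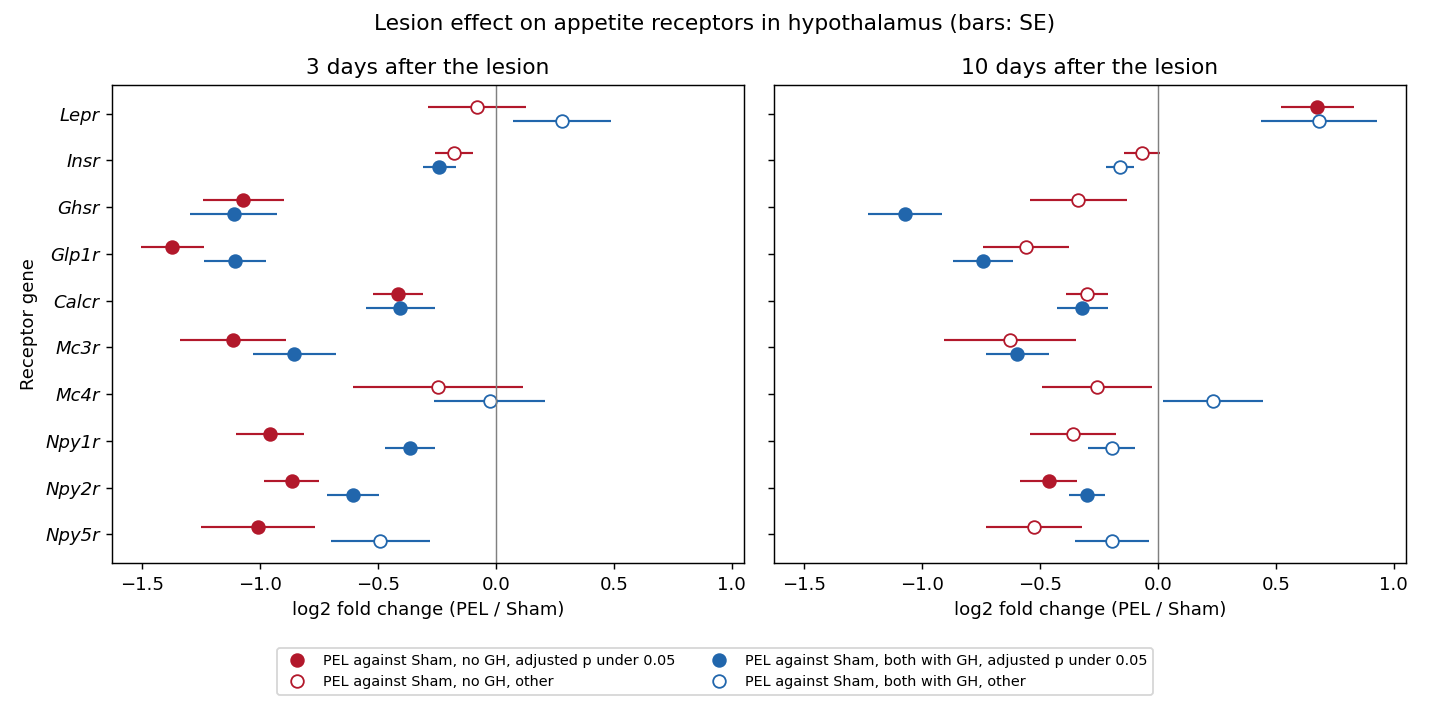
Log2 fold change of PEL over Sham for each receptor (horizontal axis, bars are SE) at 3 and 10 days, without GH in red and with GH in both arms in blue, with filled points for an edgeR adjusted p under 0.05. At 3 days the points of 7 receptors are filled in each colour, from -1.37 for Glp1r without GH to -0.24 for Insr with GH, and at 10 days Lepr is the receptor above 0 in both colours by more than its SE.

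GH itself moved no receptor past the test. In Sham with GH against Sham, 0 of 10 were called by edgeR, by DESeq2 and by limma, where 1.09% of 14539 genes tested were, and 3 had an unadjusted p under 0.05. Ghsr was higher with GH at 3.21, 2.62 and 2.89 FPKM against 2.33 and 2.30 FPKM, a log2 fold change of 0.35 ± 0.13 with an edgeR adjusted p of 0.238. Npy1r (7.89, 7.41 and 6.36 FPKM against 9.72 and 8.68) and Npy2r lay below Sham, at -0.34 ± 0.11 and -0.21 ± 0.08, with edgeR adjusted p of 0.158 and 0.222.

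The same comparison was made in the lesioned hypothalamus. At PEL_3d with GH against PEL_3d, 0 receptors were called by edgeR, DESeq2 or limma and 0 had an unadjusted p under 0.05, where 0.027% of 14798 genes tested were called. Log2 fold changes ran from -0.04 for Calcr to 0.32 for Ghsr. At PEL_10d with GH against PEL_10d, again 0 receptors were called by the 3 tools and 0 had an unadjusted p under 0.05, where 0% of 14763 genes tested were called by edgeR, 39 genes by DESeq2 and 0 by limma, and 906 had an unadjusted p under 0.05. Log2 fold changes there ran from -0.40 for Ghsr to 0.28 for Mc4r.

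The GH effect was also compared between lesioned and sham tissue. At 3 days 0 receptors differed, where 0.0462% of 15164 genes tested were called, and the largest difference was that of Npy1r, at 0.59 ± 0.19 on the log2 scale with an edgeR adjusted p of 0.283. At 10 days 0 receptors differed, where 0% of 15116 genes tested were called by edgeR, 96 genes by DESeq2 and 0 by limma, and 1366 had an unadjusted p under 0.05. Ghsr had the largest receptor difference there, at -0.74 ± 0.27 with an edgeR adjusted p of 0.433. In each comparison 1 receptor had an unadjusted p under 0.05 and DESeq2 and limma called 0.

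In the hippocampus 10 days after the lesion, Lepr was the 1 receptor called of the 9 tested, where 6.15% of 14191 genes tested were called. It fell from 1.52 and 1.80 FPKM in Sham to 0.280, 0.201 and 0.424 FPKM, a log2 fold change of -2.51 ± 0.28 with an edgeR adjusted p of 0.00297, and the groups lay far apart. Choroid plexus markers moved with it. Of 12 such markers 11 were lower, and their summed level was 115 to 951 FPKM in the PEL_10d libraries against 5273 and 6582 FPKM in the 2 Sham libraries, with none of the 12 at 0. Ttr, the main secreted protein of the choroid plexus, was at 116, 28.5 and 767 FPKM against 4157 and 5224 FPKM. The part of choroid plexus tissue in the Lepr value was not tested.

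The library that went against its hypothalamic label held the same pair of features, with Lepr at 5.19 FPKM and choroid plexus markers at 17870 FPKM, while the hypothalamic libraries kept reached 5.38 FPKM of Lepr at choroid plexus sums of at most 152 FPKM. Without hippocampal Sham replicate 3 the edgeR adjusted p of Lepr was 0.076, and with the hippocampal library that went against its label kept it was 0.153, with log2 fold changes of -2.38 and -2.58.

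**Figure D3:**
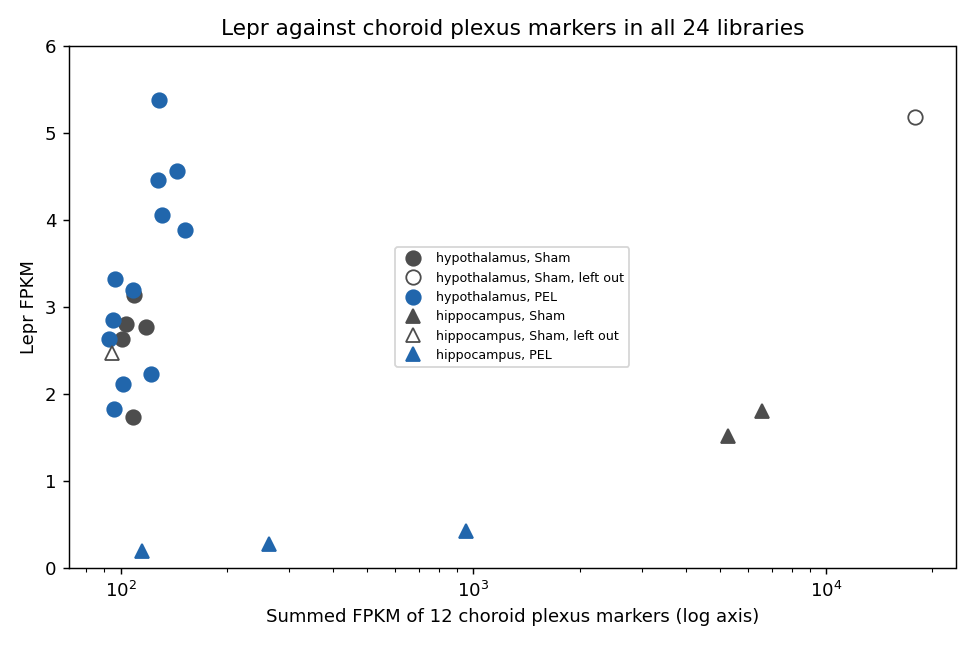
Lepr level (vertical axis, FPKM) against the summed FPKM of 12 choroid plexus markers (horizontal log axis) in all 24 libraries, with circles for hypothalamus, triangles for hippocampus and open symbols for the 2 libraries left out of the tests. The hippocampal Sham libraries lie at 5273 and 6582 FPKM of choroid plexus markers with Lepr at 1.52 and 1.80 FPKM, and the hippocampal PEL_10d libraries at 951 FPKM or less with Lepr between 0.201 and 0.424 FPKM.

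Glp1r in the hippocampus had 1 library far above the rest. It was at 0.629 and 0.655 FPKM in Sham and at 5.4, 1.19 and 0.819 FPKM at PEL_10d, where replicate 1 held 500 counts and the others 75 to 124. The log2 fold change was 1.91 ± 0.78 with an edgeR adjusted p of 0.178. That library also had the highest sum of 10 thalamic markers of the 5 hippocampal libraries, 112 FPKM against 33.4 to 69.2, and the highest sum of oligodendrocyte markers, 4407 FPKM. Npy2r was at 26.5 and 28.4 FPKM in Sham and at 21.2, 23.3 and 23.4 FPKM at PEL_10d, without overlap, with a log2 fold change of -0.28 ± 0.08 and an edgeR adjusted p of 0.0717. The other tested receptors had log2 fold changes between -0.41 and 0.53, and Calcr had too few counts to be tested. Of 20 further appetite receptors tested in the hippocampus, 3 were lower: Crhr2, a receptor for corticotropin-releasing peptides, at -1.60 ± 0.35, Htr2c, a serotonin receptor, at -1.004 ± 0.15 and Igf1r, the receptor for insulin-like growth factors, at -0.39 ± 0.09, beside 6.15% of all genes called in either direction and 11 of 12 choroid plexus markers lower, whose part in these falls was not tested.

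The day 10 lesion effect on Lepr differed between the tissues. The difference, hypothalamus minus hippocampus, was 3.16 ± 0.32 on the log2 scale with an edgeR adjusted p of 0.000292, and Lepr was the 1 receptor called of 10, where 10.7% of 15053 genes tested were called. It was called in all 18 alternative settings, with differences from 1.55 to 3.54 and an edgeR adjusted p of 0.0411 when both libraries that went against their labels were kept. The difference for Glp1r was -2.49 ± 0.87 with an adjusted p of 0.0882, and without hippocampal PEL_10d replicate 1 it was -1.21 with an adjusted p of 0.0291, and without replicate 3 of that group -2.87 with an adjusted p of 0.0272. Mc3r was called as well without replicate 1. Choroid plexus markers differed in the same direction as Lepr, 9 of 12 being called higher, and their part in the Lepr difference was not tested.

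Between tissues of the same state, some receptors were far lower in the hippocampus and others were at a similar or higher level there. In Sham, Glp1r, Lepr, Mc3r, Ghsr and Calcr were higher in the hypothalamus and Npy2r was higher in the hippocampus, 6 of 10 where 55.1% of 14479 genes tested were called. In the same comparison 12 of 12 choroid plexus markers were lower in the hypothalamus (median log2 fold change -4.64), summing to 109 and 118 FPKM there against 5273 and 6582 FPKM in hippocampal Sham, and their part in the tissue differences, that of Lepr included, was not tested. Calcr had 699 and 802 counts in the hypothalamic Sham libraries and 0 and 2 counts in the hippocampal ones, a ratio of summed library-scaled counts of 786 (95% exact interval 217 to 6499, covering counting error only). Mc3r and Ghsr had ratios of 18.3 (11.5 to 30.8) and 13.2 (8.78 to 20.7). By edgeR's own estimate, a different measure from these ratios, the folds were 608 for Calcr, 15.7 for Mc3r and 11.3 for Ghsr. On that scale Glp1r was 5.42-fold higher in the hypothalamus, at a log2 fold change of 2.44 ± 0.15 with an edgeR adjusted p of 7.54e-09.

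Npy2r was the receptor with the clearest hippocampal level. Its hippocampal Sham libraries held 26.5 and 28.4 FPKM against 14.1 and 14.5 FPKM in the hypothalamus, a log2 fold change of -1.16 ± 0.08 with an edgeR adjusted p of 1.66e-08. Insr, Npy1r, Npy5r and Mc4r were not called in Sham, with log2 fold changes between -0.48 and 0.12. The Lepr call was lost without hypothalamic or hippocampal Sham replicate 2 and with DESeq2 (adjusted p = 0.104), and with both libraries kept under their labels edgeR called no receptor in this comparison. The log2 fold changes were then 0.89 for Calcr, 1.05 for Mc3r, 0.75 for Ghsr, 1.65 for Glp1r, 0.83 for Lepr and -0.75 for Npy2r.

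At PEL_10d the same contrast called 8 of 10 receptors, where 60.6% of 14561 genes tested were called. Lepr (log2 fold change 3.60 ± 0.25), Mc3r (3.73 ± 0.84), Ghsr (2.60 ± 0.27) and Calcr were higher in the hypothalamus, and Mc4r (-1.02 ± 0.25), Npy1r (-0.53 ± 0.18), Npy2r (-1.37 ± 0.11) and Npy5r (-0.51 ± 0.18) were higher in the hippocampus. For Calcr, 1922 counts in the 3 hypothalamic libraries stood against 8 in the 3 hippocampal ones, a ratio of library-scaled counts of 249 (126 to 578). Of these 8, 7 came from hippocampal replicate 1, and without it the log2 fold change of Calcr was 9.83 in place of 7.66. The edgeR adjusted p of the 8 ran from 2.74e-07 for Calcr to 0.0336 for Npy5r. Mc4r was at 1.22, 1.28 and 1.07 FPKM in the hypothalamus and at 1.90, 1.47 and 2.76 FPKM in the hippocampus, which did not overlap. Mc3r had 22 counts in hippocampal PEL_10d replicate 1 and 0 in the others, and DESeq2 gave it an adjusted p of 0.123 and Npy5r one of 0.0633. Npy1r and Npy5r were not called by limma, where their highest adjusted p were 0.207 and 0.336, nor by edgeR without hippocampal replicate 2 or hypothalamic replicate 2 or 3. Without hippocampal replicate 1, Glp1r was called and Npy5r was not, and without hippocampal replicate 3, Npy1r was not. Microglia and macrophage markers summed to 614 to 830 FPKM in hypothalamus and 247 to 313 FPKM in hippocampus. Neuron genes summed to 1995 to 2206 and 2871 to 2924 FPKM, and reactive astrocyte markers to 1219 to 1331 and 722 to 854.5 FPKM. Choroid plexus markers summed to 128 to 145 and 115 to 951 FPKM. The part of these lists in the tissue differences was not tested. The 18 hypothalamic markers summed to between 5.92 and 14.0 FPKM in the 5 hippocampal libraries, with Hmx2 and Hmx3 at 0 in all 5 and Sim1 at 0.008 FPKM or less.

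**Figure D4:**
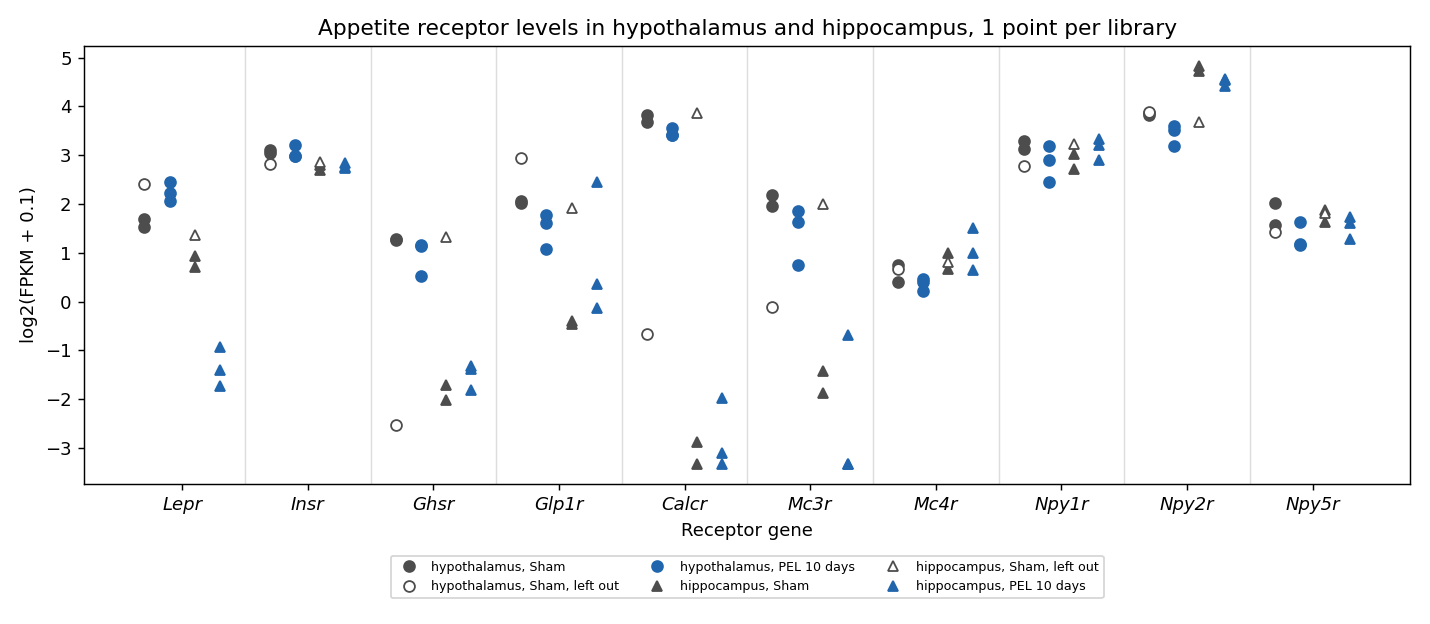
Level of each receptor as log2(FPKM + 0.1) in hypothalamus (circles) and hippocampus (triangles), Sham in grey and PEL_10d in blue, 1 point per library, with open symbols for the 2 libraries left out of the tests. Calcr, Mc3r and Ghsr lie far lower in hippocampus, Npy2r lies higher there, and for Calcr, Ghsr and Mc3r the open circle lies below the filled circles and the open triangle above the filled triangles.

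Other genes of the same pathways were followed through lists of 31 further appetite receptors, 16 ligands and 32 accessory and signalling proteins. At PEL_3d, 10 of the 25 further receptors tested were lower and 2 were higher, beside 40.5% of all genes called and 18.2% lower, with a median log2 fold change of -0.44. Hcrtr2, an orexin receptor, was at -0.80 ± 0.17, Cnr1, the main brain cannabinoid receptor, at -0.48 ± 0.08 and Ntsr2, a neurotensin receptor, at -0.50 ± 0.07, while Adipor1, an adiponectin receptor, was higher at 0.54 ± 0.08. The edgeR adjusted p of these 4 was between 0.00027 and 0.00366. At PEL_10d 2 of 26 were called, both higher (Adipor1 and Mc5r), beside 9.4% of all genes, with a median of -0.24.

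Among the ligands 7 of 16 had enough counts to be tested at PEL_3d, and 4 were lower and 1 higher, beside the same shares of all genes. Agrp, the melanocortin antagonist, was at -1.35 ± 0.35 and Pomc, the precursor of the melanocortin agonist, at -0.76 ± 0.15, both lower, and Igf1 was higher at 2.34 ± 0.18, with edgeR adjusted p of 0.0117, 0.0026 and 4.38e-06. Npy, the neuropeptide Y gene, was at -0.07 ± 0.17 with an edgeR adjusted p of 0.789. At PEL_10d 2 of 7 ligands were called, both higher, Igf1 at 2.19 ± 0.32 and Igf2, where 9.4% of all genes were called. Replicate 3 of PEL_10d with GH held 5479 FPKM of Pomc against 30.2 FPKM or less in the other libraries of that group, and its 10 anterior pituitary markers summed to 76.3 FPKM against 8.82 and 25.8 FPKM.

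Of the 31 accessory and signalling genes tested at PEL_3d, 9 were lower and 7 were higher, beside the same 40.5% and 18.2% of all genes, with a median log2 fold change of -0.15. The 4 with the smallest adjusted p were Socs3, Stat3, Ptpn1 and Irs4. Socs3, which switches off Lepr signalling, rose by 2.50 ± 0.17 on the log2 scale, Stat3 by 0.92 ± 0.09 and the phosphatase gene Ptpn1, which acts on both the leptin and insulin receptors, by 1.11 ± 0.13. Irs4, an insulin receptor substrate of the hypothalamus, was lower at -0.997 ± 0.09, and the edgeR adjusted p of these 4 ran from 1.85e-06 to 7.4e-05. From day 3 to day 10, Socs3 fell by 1.86 ± 0.17, Stat3 by 0.62 ± 0.09 and Ptpn1 by 0.69 ± 0.12 on the log2 scale, with edgeR adjusted p of 0.000123, 0.00164 and 0.00514. Against Sham, 3 accessory and signalling genes were higher and 3 lower at PEL_10d, where 9.4% of all genes were called in either direction. Among them were Cpe, an enzyme that processes prohormones, at 0.40 ± 0.08, and Grb10, an adaptor that restrains Insr, at -0.30 ± 0.06. These genes are used by many cell types, and glial markers moved at the same times: 12 of 12 microglia and macrophage markers were higher at PEL_3d and 11 of 12 were lower at PEL_10d than at PEL_3d.

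Across the 17 hypothalamic libraries the levels of several receptors that fell at day 3 followed each other. On log2(FPKM + 0.1), Glp1r had Pearson correlations of 0.93 with Mc3r, 0.90 with Ghsr and 0.90 with Npy2r, while Lepr and Mc4r lay between -0.32 and 0.30 with the other receptors. These are descriptions over libraries that share the lesion groups and their tissue makeup, and no p is attached. The genes most like Glp1r among 13395 with a mean of at least 1 FPKM were Magel2 (0.97), a gene of the Prader-Willi region, Gstm6 (0.97) and Gabra5 (0.96), a GABA receptor subunit.

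Mc3r was most like Esyt3 (0.97), Crabp1 (0.95) and H2-Q2 (0.94), and Ghsr most like Slit2 (0.94), Trim35 (0.92) and Enox2 (0.92). Npy2r was most like the potassium channel gene Kcnd3 (0.96) and Gnl1 (0.95), Npy1r like Adgrl2 (0.92), Amigo2 (0.90) and Rybp (0.89), and Npy5r like Gstm7 (0.90), Ngb (0.89) and Golga7b (0.89). Calcr was most like Klhdc10 (0.94), Syn2 (0.92) and Grik1 (0.92). Insr was most like Zfp654, Ltn1 and Avl9, each at 0.87, and Mc4r had the weakest nearest genes, Slirp (0.80), Ndufa12 (0.77) and Acyp2 (0.76).

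Lepr was most like Serpind1 (0.93), Slc6a13 (0.92) and Ogn (0.92). Slc6a13, a GABA and taurine transporter, and Ogn, a matrix proteoglycan, are known from the meninges. Of the 30 nearest genes, 28 to 29 were the same when the pseudocount was raised to 1 or the floor lowered to 0.1 FPKM.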

How the data were processed

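Bulk RNA-seq of 24 libraries (total RNA, SMARTER mRNA-Seq kit) was analysed. The authors aligned reads with Hisat2 and counted them with featureCounts, and their processing notes name GRCm38 and mm10. They deposited 1 table with estimated counts per gene and FPKM, which the authors scaled by transcript length and library total. Of the deposited counts 8.22% were not whole and were rounded. Totals ran from 15095267 to 17973494, so genes under the count filter could not be tested.

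Groups were taken from the sample titles. Counts were normalised by TMM, filtered at a minimum count of 10 (filterByExpr) over the groups compared, and tested with edgeR 4.0.16 (quasi-likelihood, R 4.3.3, Benjamini-Hochberg over all genes tested, threshold 0.05). Sham replicate 1 of each tissue was left out by a rule set before the tests, which took both as carrying the wrong tissue label. Their markers also went against their labels. The paper likewise left 1 hypothalamic Sham library out as an outlier. The alternatives were DESeq2 1.42.0, limma 3.58.1 on log2(FPKM + 0.1) and log2(FPKM + 1), other filters and size factors, a replicate block, 1 fit over all hypothalamic groups, leaving out each library, and keeping both left-out libraries. Leaving out a Sham library leaves 1, assumed to vary like the other group. The tests were tested on simulated data.

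All 10 receptors are described. Beside them, up to 4 genes per list were named by the smallest adjusted p, among those at 1 CPM or more, and 3 genes of most similar pattern per receptor by Pearson correlation, of which 1 is not reported here. The receptors, the lists and the rules were chosen with earlier results of these data known. Npy and single marker genes were named after their values were seen.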

Additional observations from a re-analysis of the deposited data

Results flagged for a closer look

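The lesion effect at day 10 on Lepr differed between hypothalamus and hippocampus by the test of the difference itself. The difference was 3.16 ± 0.32 on the log2 scale (hypothalamus minus hippocampus, edgeR adjusted p = 0.000292), from a rise of 0.68 in 3 PEL_10d against 2 Sham hypothalamic libraries and a change of -2.51 in 3 against 2 hippocampal libraries. Summed choroid plexus markers in the hippocampal libraries were 5273 and 6582 FPKM in Sham and 951 FPKM or less at PEL_10d, and their part in the difference was not tested.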

How the results depend on the processing

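The 14 counts of receptors called were computed under 208 alternative settings, of which 176 gave a count within 1.5 times the reported one. These include the comparisons of GH against no GH and of the GH effect between lesioned and sham tissue. There the reported count was 0 and at most 1.09% of all genes were called, so a count that stayed the same says little. With both libraries that went against their tissue labels kept, 3 receptors were called at PEL_3d against Sham, 0 at PEL_10d against Sham, 0 in the hippocampus and 0 between the tissues in Sham. At PEL_10d against Sham the count was 1 with a mean count of at least 50, 1 with 1 fit over all hypothalamic groups, 0 and 0 with limma at both pseudocounts, and 0 to 2 when single libraries were left out. At PEL_10d against PEL_3d it was 5 with DESeq2, 5 with 1 fit over all hypothalamic groups, 1 and 1 with limma, and 1 to 4 without single libraries. With GH, leaving out single libraries gave 4 to 8 at PEL_3d and 3 to 6 at PEL_10d against Sham with GH, and the fit over all hypothalamic groups gave 2 at PEL_10d. Without single libraries the hippocampal count was 0 to 1 and that of the tissue difference 1 to 3. The cause of these shifts was not tested, beyond fewer libraries in the fits without one. The share of all genes called under each alternative is not set beside the counts in this section. A count that moved can therefore not be read as particular to the receptors.

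Deviations of samples with the same replicate number correlated at -0.352 to 0.298, with no comparison in which every pair was over 0.1, and whether a number marks a shared animal is not given in the labels. The main tests have no block. With the replicate block, 5 receptors were called at PEL_10d against Sham, 5 at PEL_10d against PEL_3d, 2 in the hippocampus and 2 for the tissue difference, and Calcr lost its call at PEL_10d with GH.

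Of 799 values of single receptors under alternatives, which do not cover each receptor in each comparison, 685 kept direction and side of the threshold, 91 lost a call, 20 gained one and 3 turned direction. The 3 arose with both libraries kept: Calcr was at 0.16 at PEL_3d and 0.27 at PEL_10d against Sham, and Npy2r at 0.0399 in the hippocampus. Precision was limited by 2 Sham libraries per tissue and, for Mc4r, by 28 to 76 counts per hypothalamic library.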
